A study of Homo sapiens with 15 samples.

Results

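The integrated stress response and the unfolded protein response of the endoplasmic reticulum (ER) were followed through 39 genes, chosen by name and grouped by role into transcription factors, stress effectors, enzymes of serine and one-carbon metabolism, other metabolic enzymes, amino acid transporters, aminoacyl-tRNA synthetases and ER folding genes. The 39 symbols were found among 25681 in the count tables, each was read from the transcript row with the highest summed count over all 15 libraries, and all 39 passed the filter on low counts in both experiments. RNA-seq was performed in HSSYII, cells grown from a synovial sarcoma, in which the fusion gene SS18-SSX1 encodes a subunit of BAF chromatin remodelling complexes. In the first experiment cells received DMSO, the vehicle, or 100 nM dBRD9A for 6 hr. dBRD9A is a small molecule that joins the bromodomain protein BRD9, another subunit of these complexes, to the CRBN ubiquitin ligase, so that the BRD9 protein is degraded. In the second experiment cells carried lentiviral short hairpins for 96 hr: shRenilla, a control hairpin against a luciferase, or shSS18-SSX1-1 or shSS18-SSX1-2, both directed at the fusion. The hairpin virus was tagged with GFP and no drug selection was applied, so cells without a hairpin may remain in these libraries. All groups came from the 1 cell line and had 3 libraries each, and the labels do not say whether these came from separate cultures, so p-values measure the spread between libraries, which may be technical.

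When the translation initiation factor eIF2 is phosphorylated by a stress kinase (PERK in the ER, GCN2 for amino acid shortage, HRI for haem shortage, PKR for double-stranded RNA), most translation falls while the transcription factor ATF4 is made. ATF4 and its partners then induce genes for amino acid synthesis, uptake and tRNA charging, further transcription factors such as DDIT3 (CHOP) and ATF3, and the feedback genes TRIB3 and PPP1R15A. In the ER, unfolded proteins also act through ATF6 and through IRE1, which splices XBP1 mRNA, and these arms induce chaperones such as HSPA5 (BiP) and the ER-associated degradation (ERAD) machinery. ATF4 is controlled largely in translation, which RNA-seq does not measure, and the counts used here do not separate spliced from unspliced XBP1.

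The DNA elements of these pathways were looked for in the RefSeq promoter windows (GRCh38.p14, 250 bases before to 50 after the start) that matched 34 of the 39 genes. NUPR1, PSPH, SHMT2, ALDH1L2 and SLC7A11 were not matched. A gene was counted if any of its windows held the element. The core of the C/EBP-ATF response element, TGATGNAA on either strand, was present in 11 of 34 genes (32.4%) and in 4.46% of all 27305 genes with a window. The ER stress response element, CCAAT followed by CCACG after a gap of 9 bases on either strand, was present in HSPA5 and XBP1 (5.88% of 34 genes, against 0.0916% of all genes), and the XBP1 and ATF6 element TGACGTGG in CARS alone (2.94%, against 0.927%). The pieces below show these elements in the genes whose values follow, as a description of the letters only, since binding was not measured here. Each is written 5′ to 3′ on the gene's strand and lies before the RefSeq start. Each was found once near its gene in GRCh37 and has the element in capitals. Gene positions further on are from GENCODE. The CHAC1, ASNS and CEBPG pieces lie inside the GENCODE spans of these genes, which begin before the RefSeq starts used.
CHAC1 (chr15:41245449-41245478, plus strand, element on the opposite strand): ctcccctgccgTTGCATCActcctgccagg
ATF3 (chr1:212738547-212738576, plus strand): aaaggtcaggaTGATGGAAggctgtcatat
ASNS (chr7:97501770-97501799, minus strand): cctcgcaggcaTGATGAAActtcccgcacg
CEBPG (chr19:33864966-33864995, plus strand): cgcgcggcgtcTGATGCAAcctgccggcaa
HERPUD1 (chr16:56965867-56965896, plus strand, element on the opposite strand): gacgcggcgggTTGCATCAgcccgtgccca
HSPA5 (chr9:128003665-128003693, minus strand, CCAAT to CCACG in capitals): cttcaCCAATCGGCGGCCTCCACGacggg
XBP1 (chr22:29196586-29196614, minus strand, CCAAT to CCACG in capitals): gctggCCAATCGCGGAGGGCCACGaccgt

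Library totals, with 1 row counted per gene, were 18580419 to 27031647 reads. SSX1 counts, which include the fusion transcript, were 77.7, 58.4 and 55.0 CPM with shRenilla, 20.8, 20.6 and 18.7 CPM with shSS18-SSX1-1 and 28.5, 28.8 and 27.3 CPM with shSS18-SSX1-2 (log2 fold change of both hairpins -1.42, SE 0.0978, adjusted p = 5.73e-08). CPM scale the counts of a library to a total of 1000000 after TMM scaling within its experiment, which sets the scale so that most genes do not move. BRD9 degradation acts on the protein and was not checked by these counts. Of the synovial sarcoma markers, SSX1, SS18, TLE1 and BCL2 were read in every group and CD99 was listed at 0 throughout. Among shRenilla libraries, replicate 1 stood apart, with a chi-square per degree of freedom of 36.5 and 27 against the other two, where other pairs of replicates gave 1.33 to 9.85.

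With dBRD9A, 17 of the 39 genes rose and 1, XBP1, fell at an adjusted p under 0.05 (edgeR quasi-likelihood test, Benjamini-Hochberg over 13652 genes tested). The share that rose was 43.6%, where 17.7% of all genes rose, and the share that fell was 2.56%, where 18.2% of all genes fell. Most of these changes were small: 3 genes rose past 1.5-fold (7.69%, against 2.23% of all genes), namely CHAC1, ATF3 and VLDLR, and none fell that far (0.593% of all genes did). Over the 39 genes the median log2 fold change was 0.07, and over all genes 0.01. The calls depend on the scale, since TMM cannot see a shift shared by all genes. The methods describe spike-in RNA added for cell count normalization. The tables held 0 spike-in rows, so calls on that scale were not analysed here. With cell count normalization, the study reported that BRD9 degradation mainly lowered gene expression. On the TMM scale the balance past 1.5-fold was the other way, with 2.23% of all genes higher and 0.593% lower. With the dBRD9A libraries moved down by 0.2 on the log2 scale, CHAC1, ATF3, VLDLR, ATF5, PPP1R15A, SESN2 and SLC7A11 were the 7 genes still higher and 21 were lower, and with them moved up by 0.2, 33 were higher and 0 lower. Most genes move with these shifts: of all 13652 genes tested, 8601 were called in either direction after the shift down (median log2 fold change -0.19). After the shift up, 9039 were called (median 0.21). These totals of all genes were not split by direction. The counts of the 39 genes higher or lower after each shift therefore have no share of all genes beside them. Any log2 fold change with dBRD9A that lies between -0.2 and 0.2 changes sign under 1 of these shifts. Of the markers of other cell types, COL1A1 was higher with dBRD9A (log2 fold change 0.69, adjusted p = 1.14e-05). COL3A1 (-0.14, adjusted p = 0.25), TAGLN (0.07, adjusted p = 0.684) and CD68 (0.02, adjusted p = 0.911) were not called, and the rest had too few reads to be tested. The sum of the 6 fibroblast and smooth muscle markers was 17.8 to 19.1 CPM with DMSO and 19.7 to 21.9 CPM with dBRD9A. Their part in the results was not tested.

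**Figure D1:**
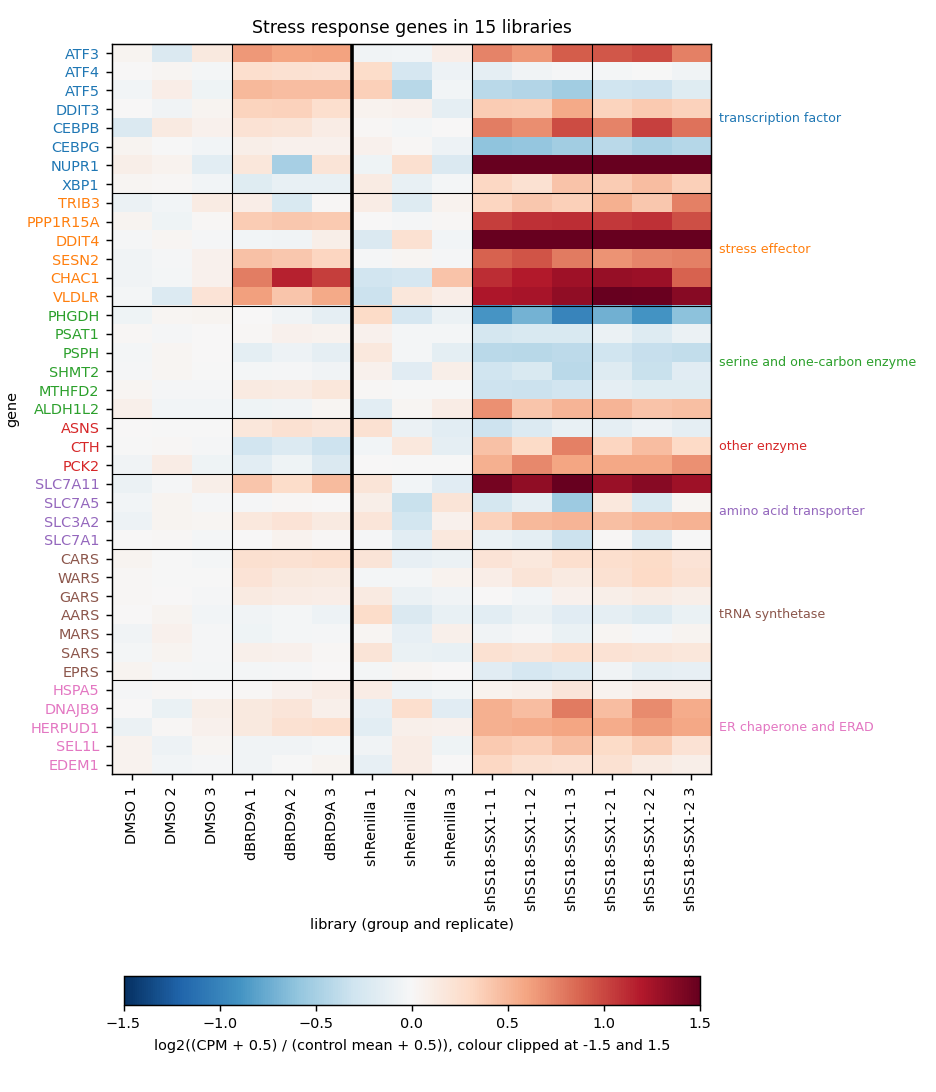
Heat map of log2((CPM + 0.5) / (control mean + 0.5)) for the 39 genes (rows, grouped by role) in the 15 libraries (columns), with DMSO as control on the left of the thick line and shRenilla on the right; colours are clipped at -1.5 and 1.5. The dBRD9A libraries show faint red for ATF4, ATF5 and DDIT3 and stronger red for ATF3 and CHAC1, and the 6 hairpin libraries show red for the stress effectors and blue for PHGDH and CEBPG.

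Of the 8 transcription factors, 5 rose with dBRD9A (62.5%, beside 17.7% of all genes). ATF4, the central factor of the response (chr22:39915700-39918688, GRCh37, the build of all gene positions here), was at 190, 194 and 186 CPM with DMSO and 227, 223 and 221 CPM with dBRD9A (log2 fold change 0.23, SE 0.0316, adjusted p = 6.4e-07). The groups did not overlap and the libraries of each lay close together. ATF3 (chr1:212738676-212794119), a bZIP factor induced by ATF4, was at 4.86, 3.98 and 5.28 CPM with DMSO and 7.65, 7.34 and 7.41 CPM with dBRD9A (0.67, SE 0.109, adjusted p = 1.24e-05). ATF5 (chr19:50431959-50437192), a relative of ATF4 that is likewise controlled in translation, rose from 38.7, 42.7 and 38.2 CPM to 56.2, 55.1 and 55.3 CPM (0.48, SE 0.0478, adjusted p = 3.17e-09). Both were higher in every dBRD9A library than in any DMSO library. DDIT3 (chr12:57910371-57915520), the factor CHOP, linked to cell death under ER stress, rose from 14.9, 14.3 and 15.3 CPM to 18.8, 19.0 and 17.7 CPM (0.32, SE 0.067, adjusted p = 0.000357), again without overlap. CEBPB, another bZIP partner, passed the test at 0.18 (adjusted p = 0.033) although its groups overlapped, and it no longer passed with DESeq2 (0.17, adjusted p = 0.101) or when DMSO replicate 1 (0.07, adjusted p = 0.343), DMSO replicate 3, dBRD9A replicate 1 or dBRD9A replicate 2 was left out. CEBPG, a bZIP protein that pairs with ATF4, was at 0.08 (adjusted p = 0.0673) and was called higher without DMSO replicate 1 (0.09, adjusted p = 0.0247) and with total counts or the upper quartile as the scale. NUPR1, a small stress-induced nuclear protein, was at -0.05 (SE 0.408, 4 to 13 reads a library).

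The gene that fell was XBP1 (chr22:29190543-29196585), the factor of the IRE1 arm. It was at 86.3, 85.4 and 82.4 CPM with DMSO and 74.8, 78.4 and 78.6 CPM with dBRD9A, with no overlap (log2 fold change -0.13, SE 0.0394, adjusted p = 0.00836). Without dBRD9A replicate 1 the call was lost (-0.11, adjusted p = 0.0709).

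Of the 6 stress effectors, 4 rose with dBRD9A (66.7%, beside 17.7% of all genes). CHAC1 (chr15:41245160-41248710), an enzyme that breaks down glutathione and a target of the ATF4, ATF3 and CHOP branch, had the largest change of the 39, from 0.63, 0.648 and 0.726 CPM to 1.49, 2.10 and 1.90 CPM (1.45, SE 0.238, adjusted p = 1.46e-05). It rested on few reads, 14 to 15 in a DMSO library and 35 to 52 in a dBRD9A library. VLDLR (chr9:2621182-2660056), a lipoprotein receptor, was at 1.62, 1.38 and 1.98 CPM and then at 2.81, 2.38 and 2.69 CPM (0.66, SE 0.176, adjusted p = 0.00362). PPP1R15A (chr19:49375469-49379316), the phosphatase subunit GADD34 that reverses eIF2 phosphorylation, rose from 14.4, 13.3 and 14.2 CPM to 18.3, 18.7 and 18.5 CPM (0.41, SE 0.0671, adjusted p = 1.46e-05). None of these groups overlapped. SESN2, a sestrin that restrains mTORC1, rose by 0.40 (adjusted p = 8.22e-07). TRIB3 (chr20:343479-378203), a pseudokinase that holds back ATF4, was at 13.2, 13.7 and 15.3 CPM with DMSO and 15.1, 11.9 and 14.3 CPM with dBRD9A (-0.03, adjusted p = 0.799), and the groups overlapped. DDIT4 (REDD1, an mTORC1 inhibitor) was at 0.00 (adjusted p = 0.975).

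Among the metabolic genes, SLC7A11 (chr4:139085251-139163503), the cystine transporter, rose from 11.8, 12.4 and 13.4 CPM to 16.9, 15.3 and 17.6 CPM (0.40, SE 0.0747, adjusted p = 8.37e-05), and its partner SLC3A2 rose by 0.17 (adjusted p = 0.00357). The neutral amino acid transporter SLC7A5 and the arginine transporter SLC7A1 were at 0.00 and 0.02 and were not called. ASNS (chr7:97480989-97501854), asparagine synthetase, was at 104, 103 and 103 CPM with DMSO and 116, 121 and 117 CPM with dBRD9A (0.19, SE 0.036, adjusted p = 7.53e-05), with the groups apart. Of the 6 serine and one-carbon enzymes, MTHFD2, a mitochondrial folate enzyme, rose by 0.14 (adjusted p = 0.000247) and the other 5, from -0.12 for PSPH to 0.04 for PSAT1, were not called. The share of these enzymes that rose, 16.7%, was near the 17.7% of all genes. PSPH was called lower without DMSO replicate 1 (-0.14, adjusted p = 0.0359), with RLE size factors (adjusted p = 0.0433) and with the 1 CPM filter (adjusted p = 0.0441), and PHGDH without DMSO replicate 1 (-0.10, adjusted p = 0.0393). CTH (cystathionine gamma-lyase) was at -0.30 (adjusted p = 0.065) and PCK2 (mitochondrial PEP carboxykinase) at -0.15 (adjusted p = 0.21). When all transcript rows of a gene were summed, CTH was called lower (-0.31, adjusted p = 0.00994). Of the 7 cytosolic synthetases, CARS (0.24), WARS (0.17) and GARS (0.11) rose (42.9%, beside 17.7% of all genes), and AARS, MARS, SARS and EPRS lay between -0.05 and 0.05. With DMSO replicate 3 left out, GARS did not pass (0.10, adjusted p = 0.0544).

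Of the 5 ER folding genes, 1 rose (20%, near the 17.7% of all genes). HERPUD1 (chr16:56966054-56978776), an ER membrane protein of the ERAD machinery, was at 37.6, 40.4 and 41.8 CPM with DMSO and 44.1, 47.0 and 47.8 CPM with dBRD9A (0.22, SE 0.0501, adjusted p = 0.00104). HSPA5 (chr9:127997132-128003661), the main ER chaperone, was at 596, 613 and 607 CPM and then at 615, 631 and 654 CPM (0.07, SE 0.0275, adjusted p = 0.0582). The groups of HSPA5 did not overlap but the test was not passed, except without DMSO replicate 2 (0.07, adjusted p = 0.0363) or dBRD9A replicate 1 (0.09, adjusted p = 0.0429) and under 2 other scalings. DNAJB9 (0.14), SEL1L (-0.04) and EDEM1 (-0.01), a co-chaperone and ERAD genes, were not called, though DNAJB9 was called higher with upper quartile scaling (0.16, adjusted p = 0.0453) and SEL1L lower without DMSO replicate 2 (-0.09, adjusted p = 0.0339). In 1 fit of all 15 libraries, which takes in the wider spread of the hairpin experiment, 9 genes were called higher and 0 lower. ASNS, ATF4, CEBPB, GARS, HERPUD1, MTHFD2, SLC3A2, WARS and XBP1 lost their calls. The share of all genes called with dBRD9A in that fit was not counted.

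**Figure D2:**
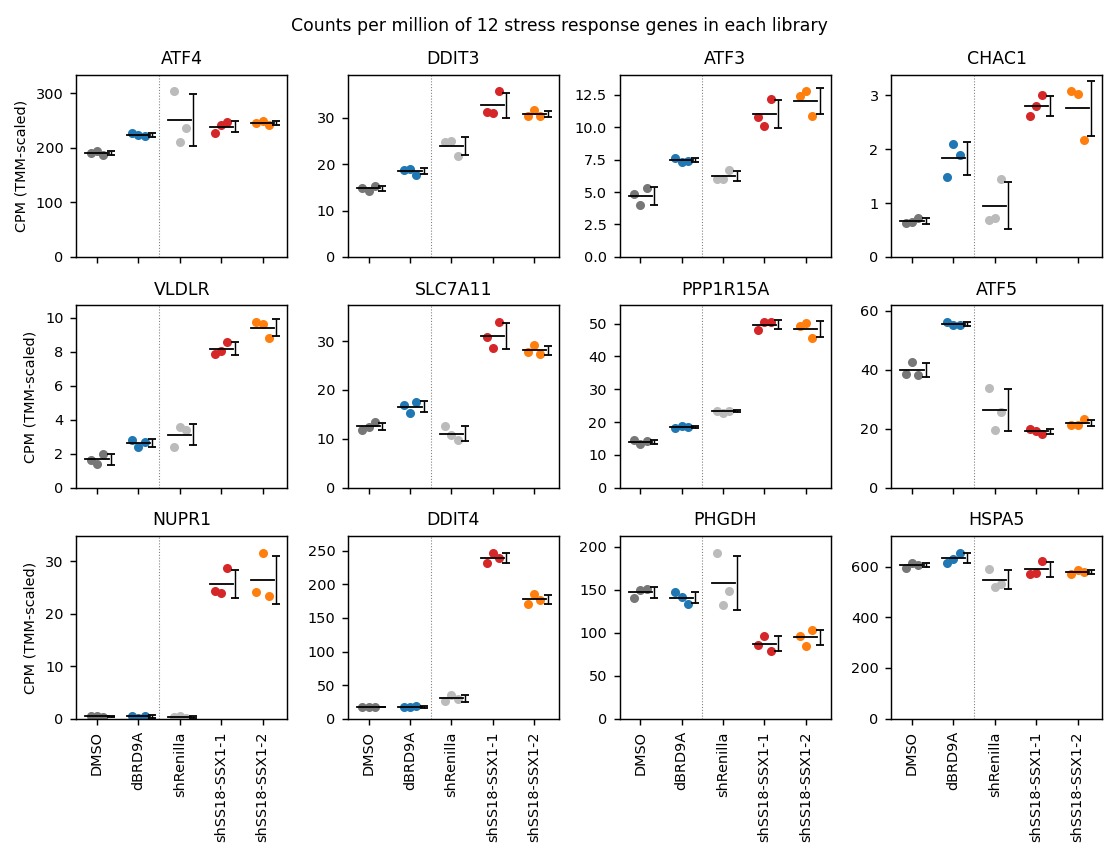
CPM of 12 of the 39 genes in each library (points, y axis from 0) for the 5 groups, with the mean (line) and SD (bar) of the 3 libraries; the dotted line separates the experiments, which were scaled separately. NUPR1 and DDIT4 are high in the 6 hairpin libraries and low elsewhere, CHAC1 and ATF3 are higher than their control in both experiments, and ATF5 and PHGDH show the wide shRenilla group.

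With SS18-SSX1 knockdown (the mean of both hairpins against shRenilla), 23 of the 39 genes rose and 8 fell (14269 genes tested). The share that rose, 59.0%, stood beside 22.5% of all genes, and the share that fell, 20.5%, was near the 22.1% of all genes. Past 1.5-fold, 11 rose (28.2%, against 12.5% of all genes) and 1, PHGDH, fell (2.56%, against 5.90%). The median log2 fold change was 0.23, and -0.01 over all genes. Markers of other cell types moved with the hairpins: the summed level of the 6 fibroblast and smooth muscle markers was 22.2 to 28.6 CPM with shRenilla and 1130 to 1410 CPM with the hairpins, that of 4 epithelial markers 0.0483 to 0.495 and 65.3 to 156 CPM, and that of 4 skeletal muscle markers 0.0381 to 0.134 and 8.76 to 20.6 CPM. With shRenilla the defining markers DCN, LUM, EPCAM, MYOG and ACTC1 were at 0. MYOG was also at 0 with both hairpins. DCN, LUM, EPCAM, MYOD1 and MYOG had too few reads to be tested with knockdown. The tested markers of these lists, COL1A1, COL3A1, ACTA2, TAGLN, KRT8, KRT18, CDH1, DES and ACTC1, were all called higher. The 4 leukocyte markers summed to 2.94 to 5.33 CPM with shRenilla and 4.84 to 6.48 CPM with the hairpins. CD68, the only leukocyte marker with enough reads to be tested, was called higher (0.51, adjusted p = 0.026), with the groups overlapping. The 4 endothelial markers summed to at most 0.316 CPM in this experiment. The part of these markers in the results was not tested.

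The 6 stress effectors all rose with knockdown (100%, beside 22.5% of all genes). DDIT4 (chr10:74033678-74035794) was at 25.7, 35.2 and 29.3 CPM with shRenilla, 232, 247 and 239 CPM with shSS18-SSX1-1 and 171, 185 and 177 CPM with shSS18-SSX1-2 (log2 fold change 2.78, SE 0.0969, adjusted p = 6.98e-11). In the dBRD9A experiment DDIT4 lay between 16.7 and 18.5 CPM in all 6 libraries. CHAC1 was at 0.685, 0.716 and 1.45 CPM with shRenilla, 2.62, 2.80 and 3.0 CPM with the first hairpin and 3.08, 3.03 and 2.17 CPM with the second (1.58, SE 0.232, adjusted p = 7.91e-05). The single shRenilla library at 1.45 CPM, replicate 3, was still below every hairpin library, and without it the log2 fold change was 2.00. VLDLR rose from 2.40, 3.58 and 3.38 CPM to 7.86, 8.02 and 8.59 CPM and to 9.74, 9.62 and 8.82 CPM (1.5, SE 0.132, adjusted p = 6.1e-07). PPP1R15A rose from 23.3, 22.9 and 23.5 CPM to 48.2, 50.4 and 50.5 CPM and to 49.2, 50.3 and 45.7 CPM (1.08, SE 0.0704, adjusted p = 2.9e-08). TRIB3, not called with dBRD9A, rose from 11.3, 9.04 and 10.8 CPM to 13.1, 13.9 and 13.4 CPM and to 15.2, 13.9 and 17.8 CPM (0.48, SE 0.104, adjusted p = 0.00189). SESN2 rose by 0.80 (adjusted p = 3.66e-07). In all 6 genes every hairpin library was above every shRenilla library. The share of all genes that separate in this way was not counted.

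The transcription factors went several ways. NUPR1 (chr16:28544029-28550329) had the largest change of the 39, from 0.266, 0.448 and 0.193 CPM with shRenilla (7, 10 and 4 reads) to 24.3, 23.9 and 28.8 CPM with the first hairpin and 24.1, 31.6 and 23.4 CPM with the second (6.40, SE 0.22, adjusted p = 6.17e-11). ATF3 rose from 5.98, 6.04 and 6.71 CPM to 10.8, 10.1 and 12.2 CPM and to 12.4, 12.8 and 10.9 CPM (0.89, SE 0.105, adjusted p = 1e-05). DDIT3 rose from 24.9, 25.1 and 21.8 CPM to 31.2, 31.1 and 35.8 CPM and to 30.4, 31.7 and 30.5 CPM (0.41, SE 0.0806, adjusted p = 0.000943). None of these groups overlapped with the control. CEBPB rose by 0.87 (adjusted p = 5.53e-06) and CEBPG fell by 0.50 (adjusted p = 8.91e-06). XBP1, lower with dBRD9A, rose from 67.2, 56.9 and 60.4 CPM to 76.4, 72.1 and 82.7 CPM and to 80.4, 84.8 and 79.2 CPM (0.37, SE 0.0743, adjusted p = 0.00118), without overlap.

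ATF4 itself was not called with knockdown. It was at 304, 211 and 237 CPM with shRenilla, 228, 241 and 247 CPM with shSS18-SSX1-1 and 245, 250 and 242 CPM with shSS18-SSX1-2 (-0.05, SE 0.0927, adjusted p = 0.684). The 3 shRenilla libraries spanned more than the 6 hairpin libraries, and without replicate 1, the highest, the log2 fold change was 0.13 (adjusted p = 0.0887). ATF5 was at 33.9, 19.7 and 25.7 CPM with shRenilla, 19.8, 19.3 and 18.3 CPM with the first hairpin and 21.4, 21.2 and 23.2 CPM with the second. It was called lower (-0.37, SE 0.128, adjusted p = 0.0302), but the groups overlapped, and without shRenilla replicate 1 it was at -0.13 (adjusted p = 0.298). The call was also lost without shRenilla replicate 3, any 1 of the 3 shSS18-SSX1-1 libraries, or shSS18-SSX1-2 replicate 1 or 2 (adjusted p 0.0549 to 0.069).

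Of the 6 serine and one-carbon enzymes, 5 fell with the mean of both hairpins (83.3%, beside 22.1% of all genes) and 1 rose. With shSS18-SSX1-2 alone, PHGDH and PSPH were called lower and MTHFD2 (adjusted p = 0.0526), SHMT2 (adjusted p = 0.0552) and PSAT1 (adjusted p = 0.181) were not. PHGDH, the first enzyme of serine synthesis (chr1:120191034-120286841), was at 193, 132 and 148 CPM with shRenilla, 85.4, 96.4 and 79.3 CPM with the first hairpin and 95.8, 84.8 and 103 CPM with the second (-0.80, SE 0.107, adjusted p = 3.39e-05), and every hairpin library was below every control library. PSPH, the last step of that synthesis, fell by 0.38 (adjusted p = 0.00113). SHMT2, which turns serine into glycine, fell by 0.27 (adjusted p = 0.0095), MTHFD2 by 0.24 (adjusted p = 0.0026) and PSAT1, the aminotransferase between PHGDH and PSPH, by 0.18 (adjusted p = 0.0208). ALDH1L2, a mitochondrial folate dehydrogenase, rose by 0.51 (adjusted p = 0.000178). The SHMT2 call was lost without shRenilla replicate 3, and that of PSAT1 without any 1 of the 3 shSS18-SSX1-1 libraries or without shSS18-SSX1-2 replicate 1 or 2 (adjusted p 0.0517 to 0.0817).

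SLC7A11 rose from 12.7, 10.7 and 9.80 CPM with shRenilla to 30.8, 28.5 and 33.9 CPM with shSS18-SSX1-1 and 27.8, 29.2 and 27.4 CPM with shSS18-SSX1-2 (1.41, SE 0.0991, adjusted p = 6.85e-08), with the groups far apart. SLC3A2 rose by 0.47 (adjusted p = 0.000879), while SLC7A5 (-0.16) and SLC7A1 (-0.12) were not called. PCK2 rose by 0.63 (adjusted p = 1.58e-05) and CTH by 0.50 (adjusted p = 0.0121). ASNS was at 136, 109 and 104 CPM with shRenilla, 94.0, 101 and 108 CPM with the first hairpin and 106, 110 and 106 CPM with the second, and these groups overlapped (-0.16, SE 0.0842, adjusted p = 0.146). Of the 7 synthetases, CARS (0.23), WARS (0.20) and SARS (0.21) rose (42.9%, beside 22.5% of all genes) and EPRS (-0.16) fell (14.3%, beside 22.1%), all by little. Of these, the EPRS call was lost without any 1 of 8 of the 9 libraries (all but shRenilla replicate 1, adjusted p 0.0774 to 0.139), that of SARS without shRenilla replicate 2 or 3, shSS18-SSX1-1 replicate 1 or shSS18-SSX1-2 replicate 1 or 3, and that of CARS without shRenilla replicate 2 or 3.

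Of the 5 ER folding genes, 4 rose with knockdown (80%, beside 22.5% of all genes). HERPUD1 rose from 33.9, 39.9 and 39.7 CPM to 55.0, 55.8 and 57.3 CPM and to 56.0, 59.0 and 56.6 CPM (0.58, SE 0.0736, adjusted p = 1.88e-05). DNAJB9 rose by 0.60 (adjusted p = 0.000586), SEL1L, an adaptor of the ERAD ubiquitin ligase, by 0.34 (adjusted p = 0.000712), and EDEM1, which hands misfolded glycoproteins to ERAD, by 0.21 (adjusted p = 0.0307). The EDEM1 groups overlapped, and its call was lost without shRenilla replicate 1 or 3, shSS18-SSX1-1 replicate 1 or shSS18-SSX1-2 replicate 1 (adjusted p 0.0565 to 0.0645). HSPA5 was at 590, 520 and 532 CPM with shRenilla, 569, 575 and 621 CPM with the first hairpin and 569, 585 and 580 CPM with the second (0.09, SE 0.0638, adjusted p = 0.263), and of all alternatives run it passed the test without shRenilla replicate 1 alone (0.16, adjusted p = 0.0194). Leaving out 1 library at a time gave 20 to 24 genes higher and 5 to 7 lower, with 5 lower without shRenilla replicate 3, any 1 shSS18-SSX1-1 library, or shSS18-SSX1-2 replicate 1 or 2.

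**Figure D3:**
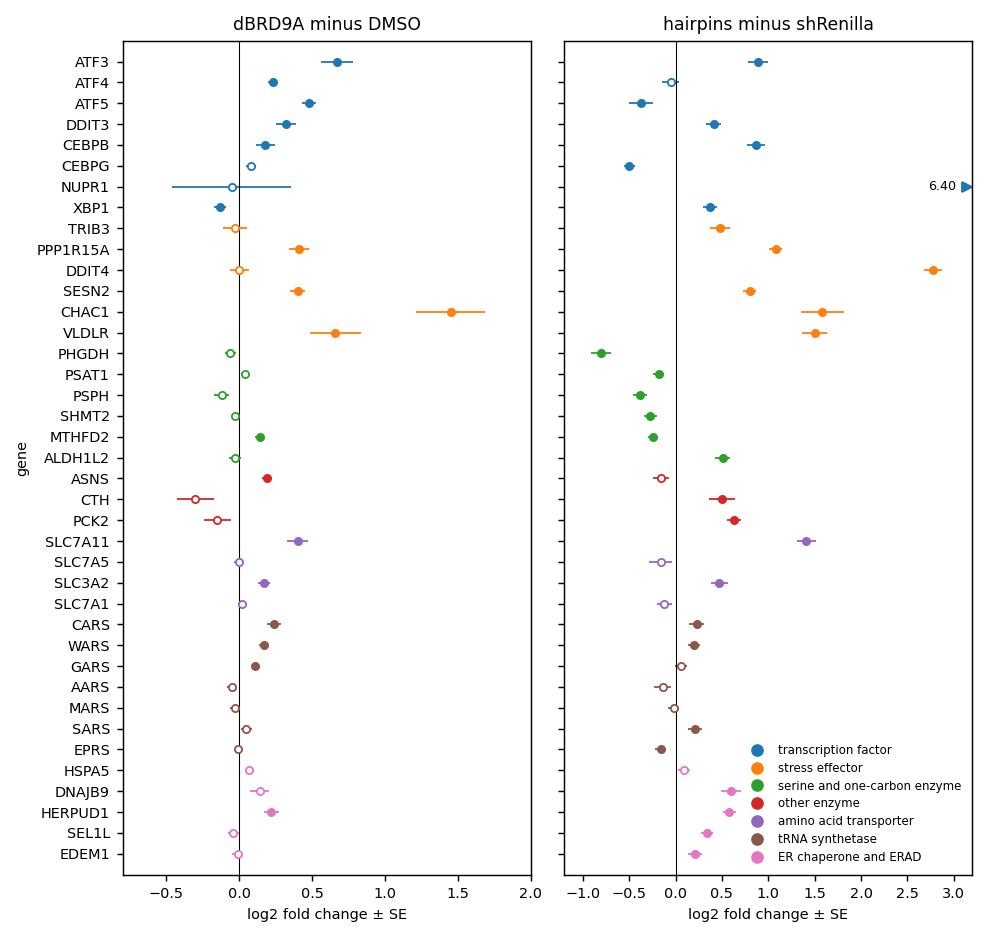
Log2 fold change with its SE for the 39 genes (rows, coloured by role) with dBRD9A (left) and with both hairpins (right, its own x axis), filled where the adjusted p is under 0.05. NUPR1 at 6.40 lies beyond the right axis and is marked with an arrow; PHGDH at -0.80 and CEBPG at -0.50 are the lowest with knockdown.

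Taken separately, the first hairpin gave 21 of the 39 genes higher (53.8%, against 22.0% of all genes) and 8 lower (20.5%, against 19.5%), and the second gave 20 higher (51.3%, against 18.3%) and 3 lower (7.69%, against 15.9%). Both share the 3 shRenilla libraries, so these counts are not independent. CEBPG, PHGDH and PSPH were the 3 lower with shSS18-SSX1-2. In the direct comparison of the hairpins 0 of the 39 genes passed the edgeR test, while 0.119% of all genes were higher with shSS18-SSX1-2 and 0.0280% lower. At an unadjusted p under 0.05 there were 2 of the 39 genes, and the share of all genes under it was not counted. DESeq2 called 1 of the 39, DDIT4, and 162 of all 14269 genes tested. DDIT4 was lower in all 3 shSS18-SSX1-2 libraries than in any shSS18-SSX1-1 library (log2 difference -0.43, SE 0.0947, adjusted p = 0.0941), and it passed the edgeR test without shRenilla replicate 1 (adjusted p = 0.0111) or replicate 2 (adjusted p = 0.0217). SSX1 was higher with the second hairpin (0.49, adjusted p = 0.138), a difference that was not called. The log2 differences of the 39 genes lay between -0.43 and 0.30 with a median of 0.05.

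The responses to dBRD9A and to knockdown were compared in 1 fit of all libraries (14560 genes tested), as the difference of the 2 log2 fold changes. They differ in time (6 hr and 96 hr), agent and controls at once, and these cannot be told apart. The dBRD9A response was the higher for 6 genes (15.4%, against 17.5% of all genes) and the lower for 17 (43.6%, against 19.0%). NUPR1 (-6.48, SE 0.633, adjusted p = 2.84e-07) and DDIT4 (-2.80, SE 0.123, adjusted p = 1.62e-11) differed most. The differences of SLC7A11 (-1.03), VLDLR (-0.86), CTH (-0.82), PCK2 (-0.81), CEBPB (-0.71), PPP1R15A (-0.70), ALDH1L2 (-0.56), TRIB3 (-0.54) and XBP1 (-0.52) were also called. So were those of DNAJB9 (-0.48), SESN2 (-0.43), SEL1L (-0.41), HERPUD1 (-0.39), SLC3A2 (-0.33) and EDEM1 (-0.24). On the other side were ATF5 (0.83, adjusted p = 0.000493), PHGDH (0.72, adjusted p = 0.000549), CEBPG (0.55), MTHFD2 (0.36), ASNS (0.33) and PSAT1 (0.20). Of the 15 fits with 1 library left out, EDEM1 kept its call in 3, SLC3A2 in 10 and PSAT1 in 12. CHAC1 (-0.16, SE 0.368, adjusted p = 0.772), ATF3 (-0.25, SE 0.155, adjusted p = 0.229) and DDIT3 (-0.11, SE 0.104, adjusted p = 0.427) were not shown to differ, nor was ATF4 (0.26, SE 0.114, adjusted p = 0.0796), which was called without shRenilla replicate 2 (0.37, adjusted p = 0.00357) and with total counts as the scale (0.30, adjusted p = 0.0349).

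Set side by side, 12 genes rose in both experiments: ATF3, CARS, CEBPB, CHAC1, DDIT3, HERPUD1, PPP1R15A, SESN2, SLC3A2, SLC7A11, VLDLR and WARS. Of the 13390 genes tested in both, 4.07% rose in both. ATF5 and MTHFD2 were higher with dBRD9A and lower with knockdown, and XBP1 was lower with dBRD9A and higher with knockdown. ASNS, ATF4 and GARS were called with dBRD9A alone, and 16 genes, among them NUPR1, DDIT4, TRIB3 and PHGDH, with knockdown alone. Over all genes 19.1% were called with dBRD9A alone and 26.0% with knockdown alone, 4.74% were higher with dBRD9A and lower with knockdown, 3.47% the reverse, and 37.7% were called in neither. The remaining 5, AARS, HSPA5, MARS, SLC7A1 and SLC7A5, were called in neither. Of the 11 genes with the C/EBP-ATF core, 7 rose and 0 fell with dBRD9A (median log2 fold change 0.17), and 5 rose and 1 fell with knockdown (median 0.06). Of the 23 genes with a window but no core, 9 rose and 1 fell with dBRD9A (median 0.05), and 15 rose and 5 fell with knockdown (median 0.34). Of all tested genes with the core, 22.5% rose and 17.4% fell with dBRD9A (258 genes) and 34.1% rose and 19.4% fell with knockdown (279 genes). Among all tested genes with a window but no core, 18.3% rose and 19% fell with dBRD9A (9563 genes). With knockdown 22.7% of such genes rose and 22.9% fell (9951 genes).

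**Figure D4:**
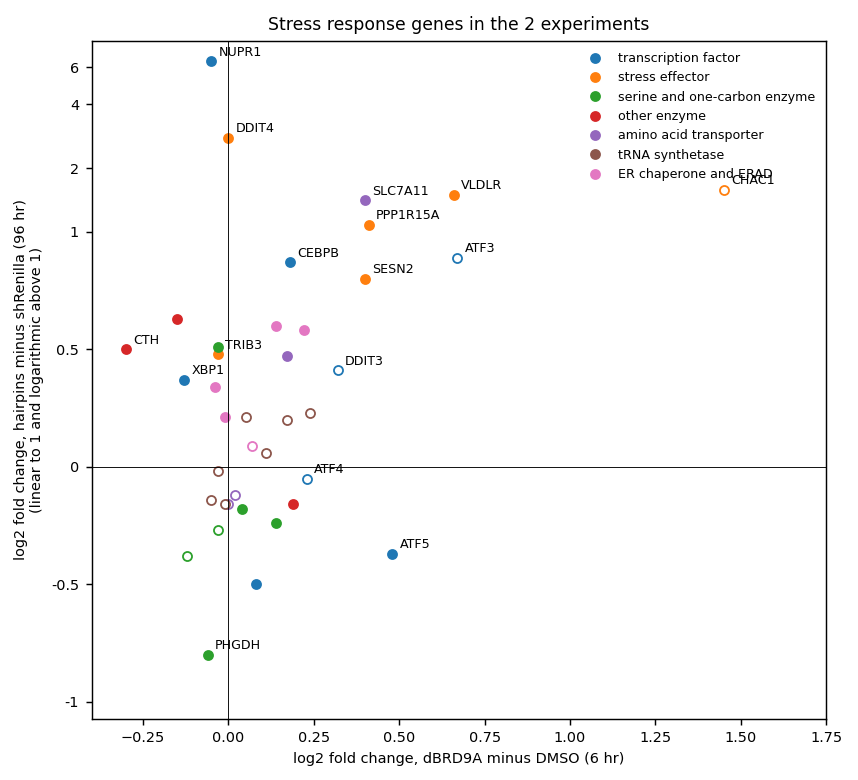
Log2 fold change with dBRD9A (x axis) against that with both hairpins (y axis, linear to 1 and logarithmic above) for the 39 genes, coloured by role and filled where the difference between the 2 passed the test. CHAC1 and ATF3, open symbols, lie high on both axes, NUPR1 and DDIT4 lie near 0 on the x axis and at 6.40 and 2.78 on the y axis, and ATF5 lies to the right and below 0.

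Other genes of the pathways, from lists chosen with earlier results of these data known, were counted in the same fits. Shares of each list are given in brackets, and of all genes 17.7% were higher and 18.2% lower with dBRD9A and 22.5% were higher and 22.1% lower with knockdown. Upstream, of 17 sensors and eIF2 factors 1 rose and 7 fell with dBRD9A (5.88% and 41.2%, median -0.06): the PERK gene EIF2AK3 rose by 0.30 (adjusted p = 5.67e-06), the GCN2 gene EIF2AK4 fell by 0.30 (adjusted p = 1.12e-07) and the PKR gene EIF2AK2 fell by 0.21 (adjusted p = 0.000403). With knockdown 1 of 17 rose, the IRE1 gene ERN1 (0.57, adjusted p = 0.0211, groups overlapping), and 5 fell (5.88% and 29.4%), among them the eIF2B subunits EIF2B1 (-0.38) and EIF2B3 (-0.34). Of the other ATF4 targets, 24 of 27 listed were tested with dBRD9A and 6 rose and 5 fell (25% and 20.8%, near the shares of all genes, median 0.01). The 3 largest changes were higher, in FAM129A (log2 fold change 1.12, adjusted p = 0.00112), the neutral amino acid transporter SLC1A4 (0.80, adjusted p = 2.8e-05) and the bZIP repressor JDP2 (0.47, adjusted p = 1.42e-06). The 5 that fell were KLHL24 (-0.27), SLC38A2 (-0.23), CBS (-0.20), ALDH18A1 (-0.11) and PYCR1 (-0.10). With knockdown 14 of 25 tested rose and 2, CBS (-0.61) and GOT1 (-0.39), fell (56% and 8%, median 0.55), led by the stress cytokine GDF15, at 0.419 to 0.627 CPM with shRenilla and 9.53 to 15.3 CPM with the hairpins (4.69, adjusted p = 2.94e-10), the cationic amino acid transporter SLC7A3 (2.69, adjusted p = 3.29e-06) and the secreted glycoprotein STC2 (2.20, adjusted p = 5.19e-05).

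Of the 24 other ER chaperone and ERAD genes, 3 rose and 3 fell with dBRD9A (12.5% each way, below the shares of all genes, median 0.00), none by more than 0.20 on the log2 scale. ERO1L, an ER oxidase (-0.20), and SEC24D, a COPII coat protein (-0.19), fell, and CRELD2 (0.19) rose. With knockdown 5 rose and 3 fell (20.8% and 12.5%, at or below the shares of all genes, median -0.03): SEC24D rose by 0.99 (adjusted p = 3.71e-06), and the ERAD gene DERL3 (-0.77, adjusted p = 0.00175) and the chaperone cofactor SDF2L1 (-0.48, adjusted p = 0.0102) fell.

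Of the 12 other cytosolic synthetases tested, 1 rose and 3 fell with dBRD9A (8.33% and 25%), from LARS (-0.19, lower) to HARS (0.13, higher), with NARS (-0.09) also lower. With knockdown 0 rose and 4 fell (33.3%), among them FARSB (-0.41), HARS (-0.29) and LARS (-0.24). Of 17 mitochondrial synthetases, 4 rose and 5 fell with dBRD9A (23.5% and 29.4%), with PARS2 (0.47), WARS2 (0.34) and SARS2 (0.31) higher, and 0 rose and 7 fell with knockdown (41.2%), with SARS2 (-0.27) and IARS2 (-0.27) among the lower.

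NRF2 targets are antioxidant genes that share SLC7A11 with the ATF4 program, and of these 5 of 8 tested (62.5%, beside 17.7% of all genes) rose with dBRD9A and 8 of 9 (88.9%, beside 22.5%) with knockdown, with none lower. GCLM, the modifier subunit of glutathione synthesis, was at 32.6, 31.6 and 33.5 CPM with DMSO and 49.9, 52.6 and 46.3 CPM with dBRD9A (0.61, SE 0.0518, adjusted p = 1.02e-10). HMOX1, haem oxygenase, rose by 0.48 with dBRD9A (adjusted p = 5.17e-05) and by 1.45 with knockdown (adjusted p = 5.1e-09). GCLC, the catalytic subunit paired with GCLM, rose by 0.19 with dBRD9A (adjusted p = 0.00302). With knockdown OSGIN1 (2.98, adjusted p = 8.1e-05, from 0 to 0.29 CPM with shRenilla) and the haem transporter SLC48A1 (1.25, adjusted p = 1.48e-07) also rose. The median log2 fold change of these targets was 0.14 with dBRD9A and 0.75 with knockdown.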

How the data were processed

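RNA-seq counts of 15 libraries (5 groups of 3) were used. Per the labels and the study's methods, the authors sequenced single-end reads, aligned them with STAR to hg19 (GRCh37) and counted them with featureCounts. Tool versions and the strand setting were not given in the sources used here. Reads of overlapping or antisense genes therefore cannot be separated. The kit is NEBNext Ultra in the methods and Ultra II in the labels. The deposited values are raw counts per RefSeq transcript row (48104 rows). In the file of dBRD9A replicate 2 the authors' deposited values are counts too, an other kind of file only in that 4535 of its rows have broken symbols, which were read by transcript. Symbols turned into dates (80) were restored by transcript, except 2. The row kept for MTHFD2 is a non-coding transcript record.

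One row per symbol was kept, genes were filtered with filterByExpr (minimum count 10), and edgeR 4.0.16 (limma 3.58.1, R 4.3.3) was used for TMM scaling and quasi-likelihood tests within each experiment, with the difference between experiments tested in all 15 libraries. Calls were made at an adjusted p of 0.05, with 1.5-fold counted beside it. DESeq2 1.42.0, limma with voom, other scalings, filters, summed rows, a replicate block, shared shifts and each library left out were alternatives. The code was tested on simulated data. Sequences are RefSeq's (GRCh38.p14), and gene positions are from GENCODE lifted to GRCh37. Genes were named by rule: ATF4, DDIT3, ATF3, TRIB3, ASNS, CHAC1, HSPA5, XBP1, HERPUD1 and the 6 largest called changes in each comparison (PHGDH and GCLM were added after their values were seen), with up to 3 from each other list and the lower other ATF4 targets (1 such gene is not reported here). The genes and lists were chosen with earlier results of these data known. Samples were grouped by GEO's labels, and library depth sets counting error only.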

Additional observations from a re-analysis of the deposited data

How the results depend on the processing

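The count of genes changed with dBRD9A (18) became 9 in 1 fit of all 15 libraries, 28 with the dBRD9A libraries moved down by 0.2 on the log2 scale and 33 with them moved up by 0.2. The first takes in the wider spread of the hairpin libraries, and the share of all genes called in it was not counted. The other pair shifts every gene by construction. Of all 13652 genes tested, 8601 were called after the shift down and 9039 after the shift up. Leaving out 1 library gave 16 to 20 genes changed with dBRD9A, 25 to 31 with knockdown (31 with all), 24 to 30 with shSS18-SSX1-1, 22 to 26 with shSS18-SSX1-2 and 0 to 1 differing between hairpins. The genes differing between hairpins (0) became 1, DDIT4, with DESeq2, with all 15 libraries in 1 fit and with no filter on low counts. DDIT4 was also called without shRenilla replicate 1 or replicate 2, and the cause was not tested. Over all genes, 162 were called with DESeq2, 123 with no filter, and 112 and 88 without shRenilla replicate 1 and replicate 2.

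Among the genes named by rule, signs turned for 8 values. Other genes with small dBRD9A effects, such as GARS and CEBPB, also turned under the shifts. Moved down by 0.2, the dBRD9A effect was -0.01 for ASNS and -0.13 for HSPA5, and moved up by 0.2 it was 0.20 for DDIT4, 0.14 for NUPR1, 0.17 for TRIB3 and 0.07 for XBP1. For DDIT4 it was 0.01 with total counts only and 0.01 with upper quartile scaling. With 1 library left out it ranged from -0.05 to 0.02 for DDIT4, -0.32 to 0.35 for NUPR1 and -0.10 to 0.06 for TRIB3, none of them called. The knockdown effect of ATF4 ranged from -0.14 to 0.13 and the difference between experiments for CHAC1 from -0.57 to 0.05. Over the genes named by rule, 17 of 914 recomputed values lost a call, 12 gained one and 885 stayed on their side of the threshold.

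Replicate numbers are shared by the labels of all groups, but same-numbered libraries did not deviate together (correlations of deviations from group means -0.399 to 0.338), so the numbers were not taken to pair them. With the replicate block, 18 genes changed with dBRD9A, 27 with knockdown, 26 and 22 with the first and second hairpin, 0 differed between hairpins and 22 between experiments.

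Depth limited NUPR1 and CHAC1, with 4 to 30 reads in a control library. No spike-in rows were in the tables, so a shift shared by all genes cannot be seen. No drug selection was applied to infected cells, and each group had 3 libraries.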
